A study of Mus musculus with 8 samples.

Results

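The sensors and adaptors of double-stranded RNA described here are 10 mouse genes, Ddx58, Ifih1, Dhx58, Mavs, Eif2ak2, Tlr3, Adar, Irf3, Irf7 and Mx1, of 18193 genes that the array's annotation names. Every probe set whose only listed gene symbol was one of the 10 was taken, which gave 23 of the 45037 probe sets tested, and 0 probe sets with several symbols named a member. The measurements came from fully grown mouse oocytes at the germinal vesicle stage, before meiosis resumes. All females, of strain 129/C57BL6, had been primed with eCG, a gonadotropin that stimulates follicle growth, and the cumulus cells around their oocytes had been removed with a pipette. Strain, hormone and handling were shared by the 4 wild-type and the 4 Dicer knockout mice, each of which gave 20 oocytes and 1 Affymetrix MOE430 v2 array. Neither the ages, the driver of the deletion nor the deleted exons of Dicer1 are given in the labels, and the labels describe 1 array per mouse.

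Dicer cuts double-stranded RNA into microRNAs and short interfering RNAs, and mouse oocytes are known for carrying natural double-stranded RNA that enters this pathway. In somatic cells long double-stranded RNA is also read by sensors of innate immunity. The cytosolic helicases RIG-I (Ddx58) and MDA5 (Ifih1), which LGP2 (Dhx58) modulates, signal through the mitochondrial adaptor MAVS to the transcription factors IRF3 and IRF7, and these switch on interferon genes. TLR3 reads double-stranded RNA in endosomes, PKR (Eif2ak2) phosphorylates the initiation factor eIF2 and so blocks translation, ADAR edits adenosines in double-stranded RNA to inosine and so hides it from the sensors, and MX1 is an antiviral GTPase made in response to interferon.

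Array medians were between 6.35 and 6.43 on the log2 scale, pairs of arrays correlated at 0.9915 to 0.9947 within a genotype and at 0.9797 to 0.9865 between genotypes (Pearson's r across probe sets, which are not independent). Precision is limited by having 4 arrays a genotype. The targeted gene was brighter in the arrays labelled knockout. Its brighter probe set read 13.04 to 13.31 in wild type and 14.26 to 14.36 in knockout, and its other one 11.39 to 11.79 and 12.11 to 12.38. With the deleted exons unstated, neither probe set checks the genotype. Dicer1 lies on chromosome 12, and no member does.

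Signals of 2 of the sensors were lower on the Dicer knockout arrays. Ddx58 fell to 52.4% of the wild-type signal and Tlr3 to 39.0% in their brightest probe sets, and the interferon-induced Mx1 fell to 70.5% in a dim one. The other probe sets of Ddx58, which were dim, did not pass. Irf3 was the member with a probe set that rose, by 1.39-fold. The cytosolic sensors Ifih1 and Dhx58, the adaptor Mavs, the kinase Eif2ak2, the editor Adar and the factor Irf7 had 0 probe sets that passed. Passing means an adjusted p under 0.05 in limma, a moderated linear model, after Benjamini-Hochberg adjustment over all 45037 probe sets.

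By count, 4 of the 23 probe sets were lower (9.31% of all probe sets were) and 1 was higher (6.82% of all were), together 21.7% beside 16.1% of all probe sets. The median difference over the 23 was 0.01 on the log2 scale, beside 0.02 over all probe sets, with 11 differences below 0 and 12 above. The members' shares lie near those of the whole array and are no result about the group, so what follows concerns single genes. In the 5 probe sets that passed, and in no other of the 23, the values of the 2 genotypes did not overlap (21.2% of all probe sets had separate groups). With 4 arrays against 4, the exact two-sided permutation p of each such probe set was 0.0286, the smallest this design can give.

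Olfactory receptor genes, which oocytes are not known to need, gave a rough guide to dim signal, although probe sets differ in brightness for reasons other than transcript number. The means of their 43 probe sets ran from 2.89 to 12.79, with a median of 5.41. The 95th percentile of these means, which depends on the few brightest, was 7.47, and 35.1% of all probe sets lay above it. Of the 23 member probe sets 8 lay above it, in Ddx58, Mavs, Tlr3, Adar and Irf3, and 3 of these passed, beside 29.5% of all probe sets above it. All probe sets of Ifih1, Dhx58, Eif2ak2, Irf7 and Mx1 lay below it. The deposited values come from RMA, which is known to compress low signals, so fold changes of dim probe sets may understate those of the RNA. This was not tested here.

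**Figure D1:**
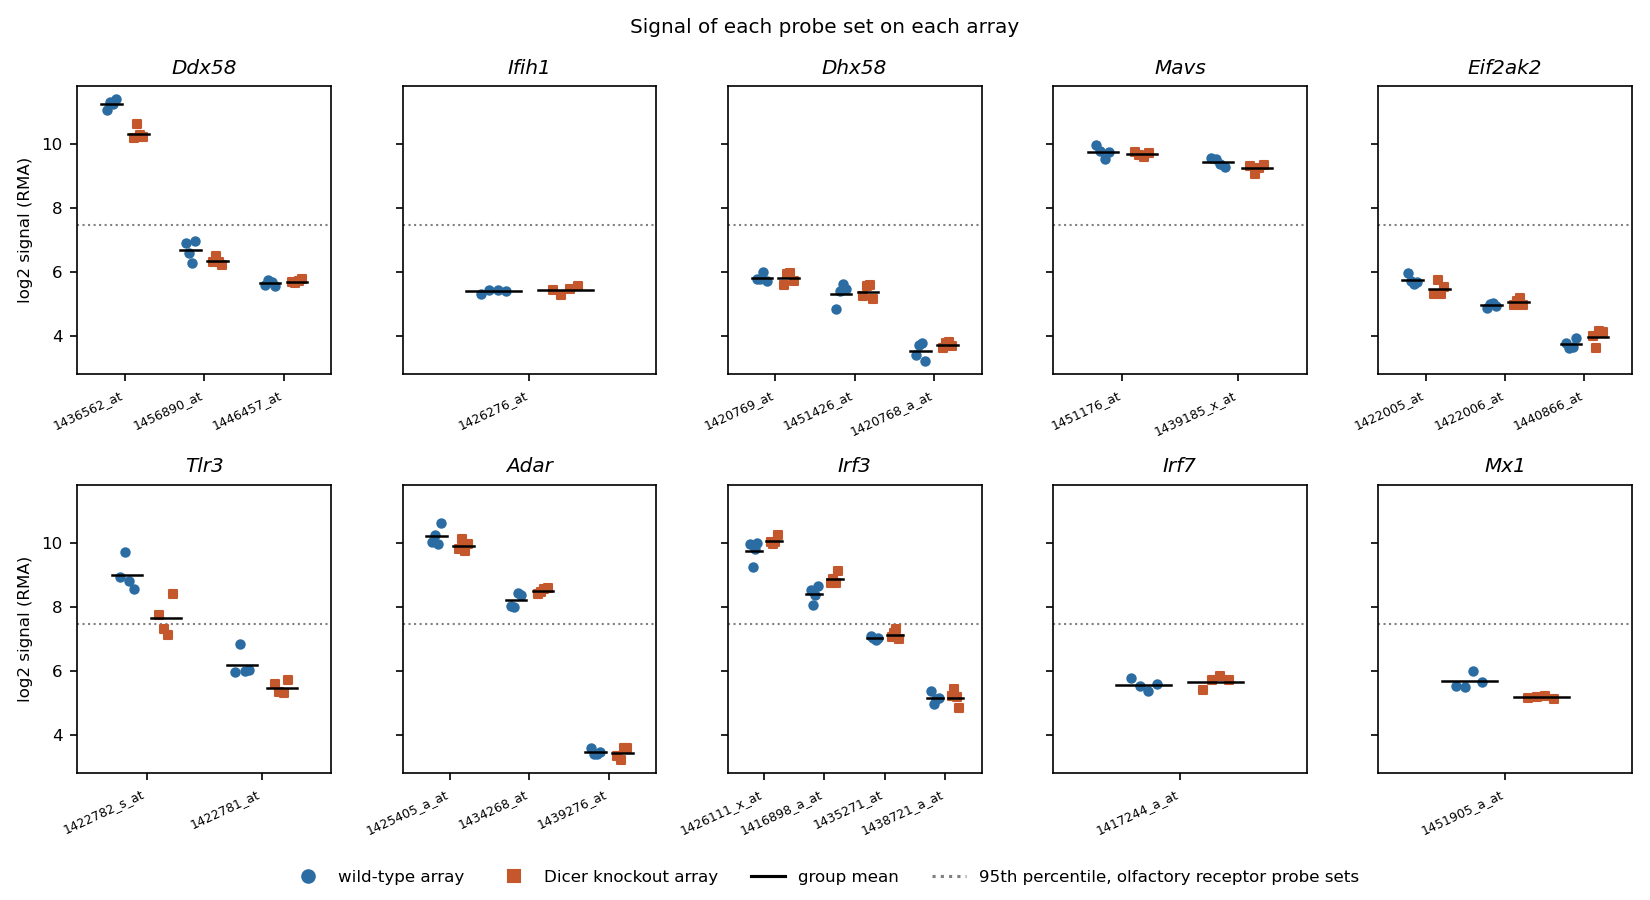
RMA log2 signal (y axis) of the 23 member probe sets (x axis, 1 panel a gene, brightest first) on the 4 wild-type arrays (circles) and the 4 Dicer knockout arrays (squares), with group means as bars and the olfactory 95th percentile of 7.47 as a dotted line. The groups stand apart in Ddx58 1436562_at, both Tlr3 probe sets, Irf3 1416898_a_at and Mx1, and overlap in the other probe sets.

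Ddx58, on chromosome 4, encodes RIG-I, which recognises short double-stranded RNA and RNA with a 5′ triphosphate. Its brightest probe set, 1436562_at, read 11.07, 11.33, 11.25 and 11.42 on wild-type arrays 1 to 4 and 10.20, 10.63, 10.28 and 10.24 on knockout arrays 1 to 4. Each knockout value was below each wild-type value, and knockout array 2 was the highest of its group. The means were 11.27 ± 0.148 and 10.34 ± 0.197 (SD, n = 4 and 4), so the log2 difference was -0.93 ± 0.114 (SE) with a 95% interval from -1.19 to -0.68 (limma adjusted p = 0.000579). The 2 other Ddx58 probe sets were dim. The probe set 1456890_at read 6.89, 6.60, 6.29 and 6.98 on the wild-type and 6.30, 6.50, 6.31 and 6.22 on the knockout arrays, where wild-type array 3 lay among the knockout values. Its difference was -0.36 (95% interval -0.68 to -0.03, limma adjusted p = 0.136). It passed when wild-type array 3 was left out, at -0.49 (limma adjusted p = 0.0218). The third, 1446457_at, read 5.55 to 5.74 and 5.65 to 5.77, a difference of 0.06 (95% interval -0.10 to 0.22).

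Tlr3, on chromosome 8, encodes the endosomal receptor for double-stranded RNA, which signals through the adaptor TRIF. The probe set 1422782_s_at read 8.94, 9.73, 8.83 and 8.56 on wild-type arrays 1 to 4 and 7.75, 7.32, 7.13 and 8.43 on knockout arrays 1 to 4. The groups did not overlap, but wild-type array 4 and knockout array 4 lay close together, and the spread within each group was wide. The means were 9.02 ± 0.505 and 7.66 ± 0.575 (SD, n = 4 and 4), a difference of -1.36 ± 0.309 (SE) with a 95% interval from -2.05 to -0.67 (limma adjusted p = 0.0153). The suffix of this probe set marks probes that can match more than 1 transcript. The dimmer probe set 1422781_at has no such suffix and fell as well, from 5.95, 6.83, 5.98 and 6.02 to 5.57, 5.32, 5.29 and 5.72, a difference of -0.72 ± 0.195 (SE, limma adjusted p = 0.0329). In both probe sets wild-type array 2 was the highest of its group, and the knockout arrays came in the same order, array 4 highest, then 1, 2 and 3. The call of the dimmer probe set ended without wild-type array 4 (limma adjusted p = 0.0508) or without knockout array 1, 2 or 3 (0.0586, 0.0785 and 0.0906). Without wild-type array 4 or knockout array 1 its difference was larger, at -0.78 and -0.75, although the call was lost.

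Markers of the somatic cells around the oocyte moved in the same direction as Tlr3. With 1 probe set a gene, the brightest, 8 of 15 measured cumulus and granulosa cell genes fell and 0 rose, beside 12.8% of all genes that fell and 8.18% that rose, and all 15 differences were below 0. Their summed signal (linear scale) was 9537 to 15050 on the wild-type arrays and 6128 to 8126 on the knockout arrays. Wild-type array 2, the highest for Tlr3, had a sum of 10650, below the 14970 and 15050 of wild-type arrays 1 and 4. Wild-type array 4, with the highest sum, had the lowest wild-type value of the brighter Tlr3 probe set (8.56). Knockout arrays 1 to 4 had sums of 8017, 6747, 6128 and 8126, the same order as in both Tlr3 probe sets. Those that fell were Cyp11a1 (-1.57), Inhbb (-1.18), Fst (-1.10), Inha (-0.996), Gja1 (-0.96), Hsd17b1 (-0.80), Fshr (-0.50) and Nr5a2 (-0.44). The others did not pass. Their differences were -0.67 (Inhba), -0.34 (Amhr2), -0.09 (Star), -0.09 (Kitl), -0.08 (Has2), -0.02 (Amh) and -0.01 (Foxl2). Of these, Star, Has2 and Amh lay below the olfactory 95th percentile. Whether such cells contribute to the Tlr3, Ddx58 or Mx1 signals was not tested. In pooled oocytes, fewer cells of a type and less RNA per cell cannot be told apart. Of 15 oocyte markers Ddx4 rose 1.86-fold, and Figla (-0.61), Mos (-0.36) and Ooep (-0.24) fell. Together 26.7% of these markers passed, beside 21% of all genes. The 15 summed to between 188000 and 196400 in wild type and between 185100 and 192500 in knockout, sums that the brightest probe sets dominate.

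Leukocytes also carry these sensors. Of 14 leukocyte markers C1qb (5.12-fold), Cd68 (2.24-fold) and Itgam (1.31-fold) rose, and Mrc1 fell by 3.13. Together 28.6% of these markers passed, beside 21% of all genes. The summed signal of the 14 was 2462 to 2966 in wild type and 3391 to 4399 in knockout. Itgam read 4.48 and 4.88, Ptprc, the leukocyte common antigen, 3.88 and 3.85, and Tyrobp 5.64 and 5.67, all below the olfactory 95th percentile. C1qb carried the higher sum. Without it the other 13 markers summed to 1899 to 2589 in wild type and 1418 to 1611 in knockout, and without Mrc1 as well the remaining 12 summed to 1033 to 1238 and 1283 to 1433. The direction of the sum therefore depended on C1qb and Mrc1, and its part in the members' results was not tested. The sums without these genes were added after the values were seen. Of the 14 differences 11 were above 0 and 3 below, with a median of 0.13, and 4 of the 14 markers lay above the olfactory 95th percentile. Of 12 theca, stroma and vessel markers 0 rose and 2 fell, Tek and Kdr, with sums of 1512 to 1668 and 1250 to 1370. Here 16.7% passed, beside 21% of all genes.

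Ifih1, on chromosome 2, encodes MDA5, the sensor of long double-stranded RNA. Its single probe set, 1426276_at, gave 5.30, 5.42, 5.43 and 5.41 for the wild-type and 5.43, 5.26, 5.46 and 5.55 for the knockout arrays. The groups overlapped fully, and the difference was 0.04 with a 95% interval from -0.14 to 0.22 (limma adjusted p = 0.805). Dhx58, on chromosome 11, encodes LGP2, which lacks the signalling domains of the other helicases. Its 3 probe sets had wild-type means of 5.82, 5.32 and 3.53 and knockout means of 5.80, 5.38 and 3.72, with differences of -0.02, 0.06 and 0.19 and limma adjusted p of 0.381 or more. The widest of their 95% intervals ran from -0.32 to 0.45. At this dim signal neither helicase gene showed a detectable difference, which does not show equal transcript levels.

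Mavs, also on chromosome 2, encodes the adaptor through which both helicases signal. It was bright in both probe sets. The probe set 1451176_at gave 9.99, 9.79, 9.53 and 9.77 for wild type and 9.75, 9.67, 9.61 and 9.73 for knockout, so the knockout values lay within the wild-type range, and the difference was -0.08 (95% interval -0.30 to 0.14). The probe set 1439185_x_at read 9.56, 9.56, 9.38 and 9.30 and then 9.32, 9.08, 9.26 and 9.34, a difference of -0.20 (95% interval -0.40 to 0.01, limma adjusted p = 0.191). The lower ends of both intervals, -0.30 and -0.40, lie above the estimate for Ddx58 of -0.93, so a fall as large as that of Ddx58 lay outside them.

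Eif2ak2, on chromosome 17, encodes PKR. Its 3 probe sets were dim, with wild-type means of 5.74, 4.96 and 3.73 and knockout means of 5.48, 5.05 and 3.96, and 0 passed. The brightest, 1422005_at, gave 5.95, 5.72, 5.62 and 5.67 for wild type and 5.31, 5.74, 5.32 and 5.54 for knockout, where knockout array 2 lay among the wild-type values. Its difference was -0.26 (95% interval -0.52 to -0.00323, limma adjusted p = 0.169), while the other probe sets differed by 0.09 and 0.23. The dimmest, 1440866_at, passed without knockout array 2, at 0.35 (limma adjusted p = 0.0436). Of 8 measured genes of the eIF2 kinase branch, 0 rose and 1 fell, near the share of all genes that fell (12.8%). It was the amino acid sensing kinase Eif2ak4, which went from 10.29 ± 0.155 to 9.89 ± 0.0821 (SD, n = 4 and 4), while its other probe set differed by -0.03 and did not pass.

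Adar, on chromosome 3, gave opposite signs in its bright probe sets, and neither passed. The probe set 1425405_a_at gave 10.04, 10.25, 9.98 and 10.62 for wild type and 9.83, 10.14, 9.76 and 9.99 for knockout, a difference of -0.29 (95% interval -0.62 to 0.03, limma adjusted p = 0.226). The probe set 1434268_at read 8.02, 8.01, 8.46 and 8.37 and then 8.41, 8.47, 8.58 and 8.59, a difference of 0.30 (95% interval 0.04 to 0.55, limma adjusted p = 0.115). Knockout array 1 fell between wild-type arrays 3 and 4 there. The third, 1439276_at, read 3.40 to 3.58 and 3.21 to 3.57. Adar is known for a constitutive and an interferon-induced isoform, and the annotation does not say which isoform each probe set reads.

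Irf3, on chromosome 7, encodes the factor that MAVS and TRIF activate by phosphorylation. Its probe set 1416898_a_at gave 8.52, 8.06, 8.39 and 8.67 for wild type and 8.77, 8.90, 8.76 and 9.14 for knockout, with wild-type array 2 lowest and knockout array 4 highest. The means of 8.41 ± 0.261 and 8.89 ± 0.178 (SD, n = 4 and 4) differed by 0.48 ± 0.138 (SE, 95% interval 0.17 to 0.79, limma adjusted p = 0.0427). The call rests on most of the arrays, since it was kept without wild-type array 4 and lost without each of the other 7, at limma adjusted p of 0.0579 to 0.106. It was also lost when arrays were scaled to a common median (0.45, limma adjusted p = 0.0613). The brighter 1426111_x_at read 9.97, 9.26, 9.81 and 9.997 and then 10.05, 9.99, 10.05 and 10.27, a difference of 0.33 (95% interval -0.02 to 0.68, limma adjusted p = 0.202), again with wild-type array 2 lowest and knockout array 4 highest. The 2 dimmer probe sets differed by 0.11 and 0.01. Irf7, on the same chromosome, encodes the factor that amplifies the interferon response. Its probe set gave 5.78, 5.54, 5.38 and 5.58 for wild type and 5.39, 5.73, 5.84 and 5.71 for knockout, a difference of 0.10 (95% interval -0.17 to 0.36, limma adjusted p = 0.656).

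Mx1, on chromosome 16, is listed by RefSeq's mouse genome table as a transcribed pseudogene, since many inbred mouse strains, C57BL/6 among them, carry a defective copy. Its probe set 1451905_a_at gave 5.53, 5.49, 5.997 and 5.66 for wild type and 5.13, 5.18, 5.22 and 5.13 for knockout. The knockout values lay within a narrow band below all wild-type values. The means of 5.67 ± 0.229 and 5.17 ± 0.0437 (SD, n = 4 and 4) differed by -0.50 ± 0.11 (SE, 95% interval -0.75 to -0.26, limma adjusted p = 0.0123). The mean over all arrays, 5.42, was near the median of the olfactory receptor probe sets, 5.41, and whether the signal is that of the transcript was not tested.

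**Figure D2:**
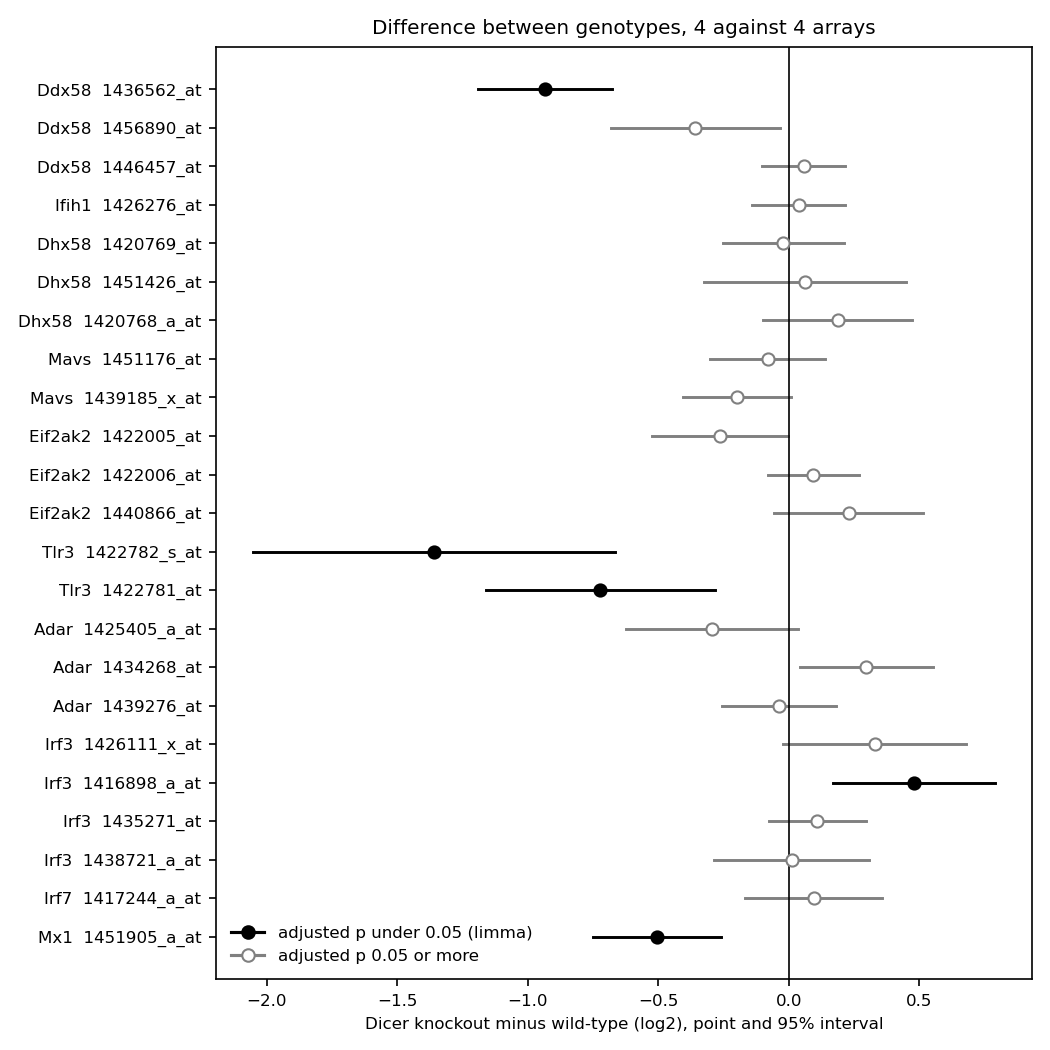
Difference between Dicer knockout and wild-type means (log2, x axis) for the 23 member probe sets, with 95% intervals from limma as bars and filled points for adjusted p under 0.05 (n = 4 and 4). The brightest Ddx58 probe set and both Tlr3 probe sets lie furthest below 0, at -0.93, -1.36 and -0.72, and Irf3 1416898_a_at furthest above it, at 0.48.

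Probe sets of 1 gene read different stretches of its transcripts, and their differences were compared within each array. In Ddx58 the brightest minus the second brightest was 4.18 to 4.97 in wild type and 3.90 to 4.13 in knockout, a change of -0.58 (exact two-sided permutation p = 0.0286, 0.1 after Benjamini-Hochberg adjustment over 7 genes). In Adar the same measure went from 2.01 ± 0.341 to 1.42 ± 0.2, a change of -0.59 (exact p = 0.0571, adjusted 0.1), and in Tlr3 from 2.82 ± 0.196 to 2.18 ± 0.379, a change of -0.64 (exact p = 0.0571, adjusted 0.1). With 0.0286 as the smallest p this design gives, a single gene cannot pass the adjustment over 7, so the adjusted values say nothing for or against a difference between probe sets. These comparisons were added after the values were seen.

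Several of these genes, Ddx58, Ifih1 and Eif2ak2 among them, are themselves known to be induced by interferon, which acts through the interferon-stimulated response element in promoters. RefSeq windows of 300 bases (GRCm38.p6), from 250 before to 50 after a transcription start, were listed for 8 of the 10 genes. Dhx58 and Mx1 had no entry in the table. The core GAAA, any 2 bases and again GAAA was searched on both strands. It was present in 3.44% of all 32851 windows and in those of 3 members, Ddx58, Ifih1 and Eif2ak2. The windows of these genes and of Tlr3, which also fell, are shown. Capitals mark the match, and sequences run 5′ to 3′ along the gene. They are Ddx58 (chr4:40239776-40240075, minus strand), Ifih1 (chr2:62646206-62646505, minus strand), Eif2ak2 (chr17:78882523-78882822, minus strand) and Tlr3 (chr8:45410331-45410630, minus strand).
Ddx58: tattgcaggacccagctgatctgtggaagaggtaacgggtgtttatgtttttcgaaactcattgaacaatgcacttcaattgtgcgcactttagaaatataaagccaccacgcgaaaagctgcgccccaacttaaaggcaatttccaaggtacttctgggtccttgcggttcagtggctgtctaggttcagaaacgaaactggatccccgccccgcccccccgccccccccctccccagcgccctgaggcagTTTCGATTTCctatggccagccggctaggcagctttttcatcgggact
Ifih1: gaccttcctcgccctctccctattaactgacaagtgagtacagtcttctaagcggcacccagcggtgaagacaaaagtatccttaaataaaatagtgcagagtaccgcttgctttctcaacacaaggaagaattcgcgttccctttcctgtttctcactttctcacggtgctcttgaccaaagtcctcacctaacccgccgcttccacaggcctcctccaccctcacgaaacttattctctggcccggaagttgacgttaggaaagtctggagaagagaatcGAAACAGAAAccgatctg
Eif2ak2: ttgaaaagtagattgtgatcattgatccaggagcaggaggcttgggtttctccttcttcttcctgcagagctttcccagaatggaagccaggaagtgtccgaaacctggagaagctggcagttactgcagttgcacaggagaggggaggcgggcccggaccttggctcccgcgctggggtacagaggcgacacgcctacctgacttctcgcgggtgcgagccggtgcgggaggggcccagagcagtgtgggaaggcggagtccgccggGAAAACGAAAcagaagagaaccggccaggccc
Tlr3: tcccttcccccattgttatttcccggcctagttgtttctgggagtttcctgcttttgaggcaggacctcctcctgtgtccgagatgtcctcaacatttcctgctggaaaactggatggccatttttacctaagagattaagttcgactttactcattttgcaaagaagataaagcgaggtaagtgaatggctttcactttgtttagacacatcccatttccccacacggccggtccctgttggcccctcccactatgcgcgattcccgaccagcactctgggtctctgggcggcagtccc

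In Ddx58 the core lies on the opposite strand 3 to 12 bases into the transcript, in Ifih1 on the gene's strand at 33 to 42, and in Eif2ak2 on the gene's strand at 19 to 28. Of these genes Ddx58 fell. The probe sets of Ifih1 and Eif2ak2 did not pass with all arrays, and all lay below the olfactory 95th percentile, where a missing call says little. Tlr3 fell and its window has no exact match to the core, but looser forms of the element were not searched. Across the array, with 1 probe set a gene, 524 genes had a window with the core. Of them 11.5% rose and 11.6% fell, beside 8.26% and 13% of 13928 genes with a window and no match, and the median differences were 0.0047 and -0.0017. A match is a description of letters and not a binding site.

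Other genes of the pathway were taken from lists with 1 probe set a gene, the brightest over all arrays, where 8.18% of 18193 genes rose and 12.8% fell. Of 29 measured regulators and partners of the sensors 2 rose and 6 fell, with a median difference of -0.06 beside 0.0027 over all genes. Cyld, a deubiquitinase known to restrain RIG-I signalling, gave 7.98, 6.75, 6.17 and 6.44 for wild type and 10.70, 9.97, 10.37 and 10.54 for knockout. It rose 11.8-fold (limma adjusted p = 0.00016), and of its 3 other probe sets 1 rose and 2 did not pass. The wild-type mean, 6.84, lay below the olfactory 95th percentile and the knockout mean, 10.40, above it. Wild-type array 1 was the highest of its group by over 1 log2. Ddx60, a helicase linked to RIG-I signalling, read 6.11, 7.42, 6.41 and 6.67 and then 4.30, 4.07, 4.57 and 4.09. It fell by 2.40 (limma adjusted p = 0.000228), while its other probe set did not pass (-0.42), and both groups' means lay below the olfactory 95th percentile. Zc3hav1, the zinc finger antiviral protein, fell by 0.90, while its 2 other probe sets did not pass. Dnajc3, an inhibitor of PKR, fell by 0.43, and its 4 other probe sets fell too. Stau2, a double-stranded RNA binding protein, rose 1.29-fold, and of its 2 other probe sets 1 rose. Rnf135, a ubiquitin ligase of RIG-I, and Rnf125 and Ddx1 were the other genes of the list that fell, named after their values were seen. Rnf135 fell by 1.21, Rnf125 fell by 0.52 and Ddx1 fell by 0.26. The mean of Rnf135 over all arrays also lay below the olfactory 95th percentile.

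Between the adaptors and the interferon genes, 2 of 24 measured genes rose and 3 fell, with a median difference of 0.03. Together 20.8% passed, near the 21% of all genes. Traf5 fell by 0.97, while its other probe set did not pass (-0.17). Traf6, a ubiquitin ligase downstream of MAVS and toll-like receptors, fell by 0.61, and of its 4 other probe sets 1 fell and 3 did not pass. Azi2, an adaptor of the kinase TBK1, fell by 0.44. The single other probe set of Azi2 differed by 0.18 and did not pass. Cgas, the cytosolic DNA sensor, rose 1.37-fold, from 12.50 ± 0.184 to 12.95 ± 0.0552 (SD, n = 4 and 4), and its other probe set rose as well. Traf2 rose 1.21-fold. Of 17 interferon ligands, receptors and JAK-STAT genes 0 rose and 3 fell (17.6% passed, near the 21% of all genes). Jak1, a kinase of the interferon receptors, fell from 11.39 ± 0.0233 to 10.93 ± 0.0862 (log2 -0.46, limma adjusted p = 0.0017), Jak2 fell by 0.40 and Stat2 fell by 0.38. The other probe sets of these 3 genes did not pass. Named after its value was seen, interferon beta (Ifnb1) read 6.05 ± 0.05 and 6.27 ± 0.14 and did not pass (limma adjusted p = 0.102). The means of Traf6, Traf2, Stat2 and Ifnb1 over all arrays lay below the olfactory 95th percentile.

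Of 37 measured interferon-induced genes 2 were higher and 6 lower, together 21.6% beside 21% of all genes, with a median difference of 0.05. The share lies near that of all genes and is no result about the list. Trim30a rose 2.51-fold and Gbp7, a guanylate binding protein, 2.25-fold, each in both of its probe sets. Cmpk2 fell by 0.98, with no call in its other probe set, and Dtx3l fell by 0.74, as did its other probe set. Ifitm3, a membrane protein that blocks virus entry, fell by 0.61. Parp14, Ifitm2 and Parp9, named after their values were seen, completed those that fell. Ifit1, chosen likewise, read 4.93 ± 0.266 and 5.15 ± 0.161 and did not pass (limma adjusted p = 0.348). The means of Parp14, Ifitm2, Parp9 and Ifit1 over all arrays lay below the olfactory 95th percentile. Of the 19 pathway genes named by rule, 16 kept their call whichever array was left out. Traf2 kept it in 1 of 8 such fits, Stat2 in 2 and Azi2 in 7.

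**Figure D3:**
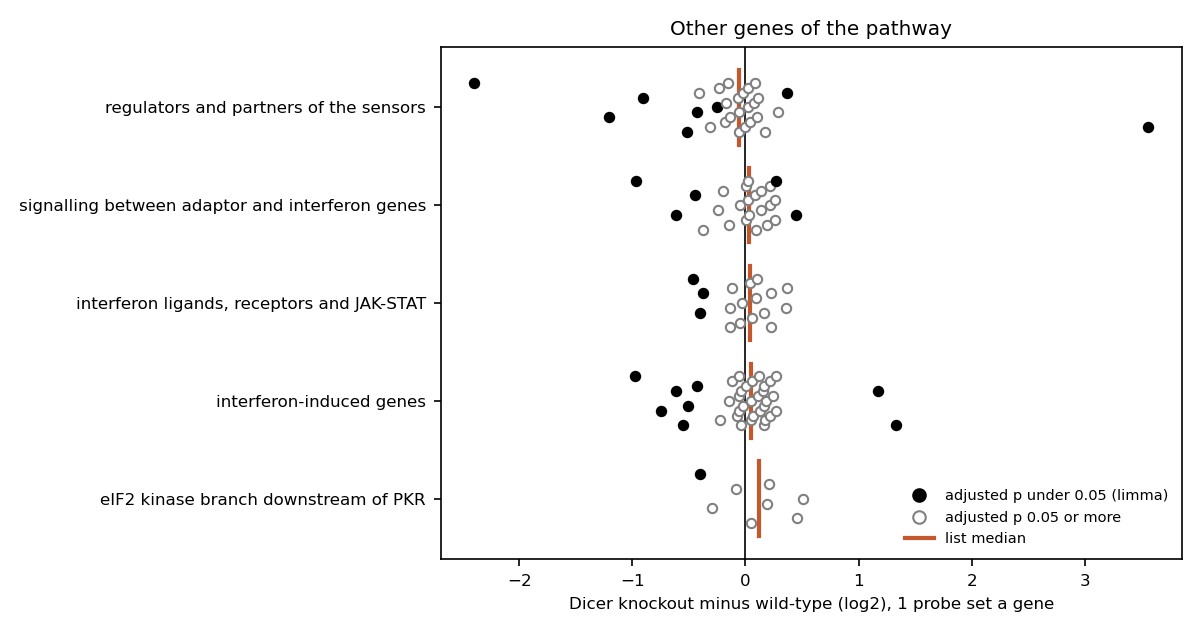
Difference between Dicer knockout and wild-type means (log2, x axis) for genes of the 5 pathway lists, 1 probe set a gene, with filled points for adjusted p under 0.05 and a bar at each list's median. The medians lie between -0.06 and 0.12, and the points furthest out are Cyld at 3.56 and Ddx60 at -2.40.

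The calls of the members differed in how often they were kept when 1 array was left out. Ddx58 1436562_at passed in all 8 fits that left 1 array out, with differences of -1.03 to -0.88 and limma adjusted p of 0.000359 to 0.00285. Mx1 passed in all 8, with -0.56 to -0.40 and 0.0108 to 0.0348. The brighter Tlr3 probe set passed in all 8, with -1.61 to -1.12 and 0.00509 to 0.0451, its dimmer one in 4 of 8, and Irf3 1416898_a_at in 1 of 8.

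**Figure D4:**
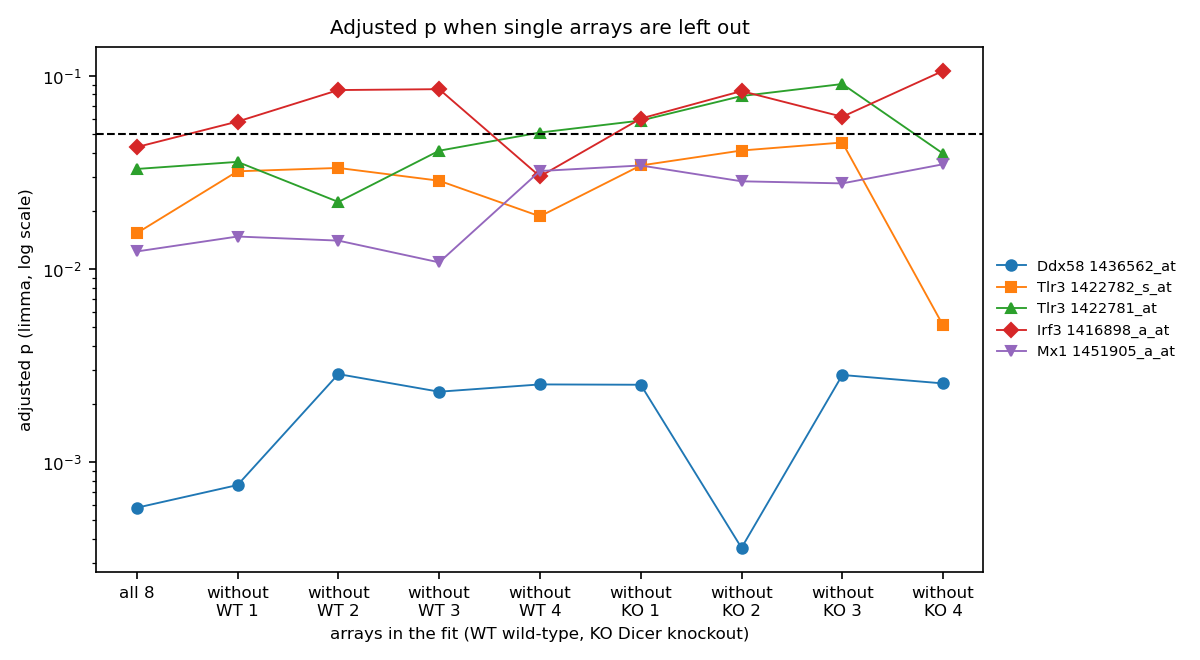
Adjusted p from limma (log axis) of the 5 member probe sets that passed with all 8 arrays, and in the fits without each wild-type (WT) or knockout (KO) array, with the threshold of 0.05 dashed. Ddx58, Mx1 and the brighter Tlr3 probe set stay under the line, while the dimmer Tlr3 probe set crosses it in 4 fits and Irf3 in 7.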

How the data were processed

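Per the submitters' processing notes, the deposited log2 signals were made with RMA and Partek, whose versions and settings are not given in the sources used here. Per the labels' protocols, RNA was isolated with the PicoPure kit and amplified linearly over several rounds, which favours transcript 3′ ends. The table held 45101 probe sets on 8 arrays, 0 missing values and 0 columns of other samples. Detection calls were not used here.

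Gene names came from GEO's platform table, which gave 34945 probe sets with 1 symbol, 932 with several and 9160 with none listed. Of the first, 34741 matched the RefSeq gene table (GRCm38.p6). No build is named for the arrays, so genes are given by chromosome. Knockout was compared with wild type by limma 3.58.1 in R 4.3.3 (lmFit, eBayes, no covariates) over 45037 probe sets, without 64 controls. Errors are SDs, or moderated SEs of differences. The fit was tested on simulated data. All probe sets of members are described, and from each pathway list the 3 genes with the lowest p in each direction among those passing. The members and lists were chosen with earlier results of these data known.

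Alternatives were quantile, median and cyclic loess scaling, a filter at the olfactory percentile, a trended robust variance, no suffixed probe sets, array quality weights, a random block for the leading number in the titles, and each array left out. Within-gene contrasts were added after seeing the data. Each array is a separate mouse per the labels, so p-values measure the spread between mice together with that of amplification.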

Additional observations from a re-analysis of the deposited data

Results flagged for a closer look

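In groups of 4 arrays, 50 sets of values (the member probe sets and the control transcripts) were searched for an array far from the others of its group, and chance alone gives about 2.5 such sets. In 1 set an array stood apart. The Tlr3 probe set 1422781_at read 6.83 on wild-type array 2 while the other 3 of its group lay at 5.95 to 6.02. Without that array the difference was -0.51 and passed (limma adjusted p = 0.0222).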

How the results depend on the processing

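The count of 4 lower and 1 higher member probe sets was the same under quantile scaling, cyclic loess, the trended robust variance, array weights and the random replicate block. The block gave a correlation of -0.0778 and 4 lower and 1 higher, and 2 of its numbers occur in both genotypes. Median scaling gave 0 higher (Irf3 at limma adjusted p = 0.0613), leaving out suffixed probe sets 0 higher and 2 lower of 14 tested, and the filter on low values 2 lower of 8 tested. The last 2 settings drop probe sets that had passed. Leaving out single arrays gave 0 to 1 higher and 3 to 5 lower. Signs of small differences that did not pass turned in some settings, and the cause was not tested. Ifih1 went to -0.0039 (quantile) and -0.0084 (loess), Dhx58 1451426_at to -0.011 (array weights), Mavs 1451176_at to 0.016 (loess) and Irf3 1438721_a_at to -0.025 (quantile), -0.017 (median) and -0.032 (loess). Without single arrays, Ifih1 ranged from -0.0018 to 0.093, Dhx58 1420769_at from -0.071 to 0.053, Dhx58 1451426_at from -0.10 to 0.16, Adar 1439276_at from -0.086 to 0.034 and Irf3 1438721_a_at from -0.073 to 0.12. RNA quality, as the 3′ minus 5′ signal, was 2.32 ± 0.274 and 2.14 ± 0.145 for actin (SD over 4 arrays each, two-sided exact permutation p = 0.257) and 2.96 ± 0.0817 and 2.82 ± 0.153 for Gapdh (exact p = 0.143, both 0.257 after Benjamini-Hochberg adjustment). Dim signal limits what can be said of Ifih1, Dhx58, Eif2ak2, Irf7 and Mx1, whose probe sets all lie below the olfactory percentile.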

Other observations

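Tlr3, Ddx60 and Cyld lie on chromosome 8, a feature seen after the values were known. Of 932 genes measured there 20% passed in either direction, beside 21% of all genes. The shares were 21.2% on chromosome 4, 19.3% on chromosome 7 and 24.1% on chromosome 16. Among wild-type arrays, array 2 gave the highest Tlr3 (9.73) and Ddx60 (7.42) and array 1 the highest Cyld (7.98).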
